A study of Mus musculus with 12 samples.

Results

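The T cell receptor signalling genes examined here are 39 genes whose products form the antigen receptor of T cells, carry its signal, tune or end that signal, or act as transcription factors below it. They were chosen by name, with earlier results of these data known. Expression was measured in cytotoxic T lymphocytes (CTL) on 12 Affymetrix mouse arrays in 4 groups of 3. Of the 39 genes, 37 have a probe set that names them alone, among 18193 genes on the array, and Lck and Nfkb1 were not analysed here. The 37 genes have 89 such probe sets, 24 of them more than 1, and each gene is described by its brightest probe set over the 12 arrays. They comprise 8 receptor chains and surface proteins, 10 kinases, adaptors and effectors, 9 phosphatases, ligases and other enzymes, and 10 transcription factors.

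All CTL came from spleen cells of C57BL/6 background mice, activated for 48 hr with the antibody 2C11 against CD3 (0.5 μg/ml) and with interleukin-2 (IL-2, 20 ng/ml), then washed and cultured for 5 days in IL-2. In the first experiment, CTL of PDK1fl/fl TamoxCre mice (PDK1 null) were compared with CTL of TamoxCre mice (Cre control). TamoxCre is a Cre recombinase that 4-hydroxytamoxifen (4OHT) switches on, made from the ROSA26 locus and so not limited to T cells, and the cultures of both genotypes had 0.6 μM 4OHT for the last 72 hr. In the second experiment, the CTL of each of 3 wild-type mice were divided between IL-2 alone and IL-2 with 1 μM AktI-1/2 (AktI), an inhibitor of the kinase Akt, for the last 48 hr. PDK1, encoded by Pdpk1, is a kinase that phosphorylates Akt and other kinases of the same family. Each array of the PDK1 experiment is labelled a biological replicate, and the AktI cultures are paired by mouse.

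The T cell receptor binds peptide on a major histocompatibility complex molecule, and the CD3 and zeta chains beside it carry the signal into the cell. The kinases Lck and Fyn phosphorylate these chains, Zap70 binds to them, and Zap70 in turn phosphorylates the adaptors Lat and Lcp2 (SLP-76), on which phospholipase Plcg1 and the exchange factor Vav1 gather. Plcg1 makes diacylglycerol and a calcium signal, which lead to Rasgrp1 and Ras, to Malt1 and Bcl10 with NF-κB, and to the NFAT factors. Diacylglycerol kinases, phosphatases and ubiquitin ligases limit these steps, and Egr and Nr4a genes are among the first to be transcribed when a T cell is stimulated. In the cultures measured here, the CD3 antibody had been washed away days before the RNA was taken, and the cells grew in IL-2.

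The 3 replicates of each group correlated over all probe sets with r of 0.9958 or higher. Array medians (log2) ran from 4.61 to 4.63 in the PDK1 experiment and from 5.1 to 5.14 in the AktI experiment, so levels were compared within an experiment and only changes between them. Both probe sets of Pdpk1 gave similar signals in Cre control and PDK1 null CTL, with log2 fold changes of 0.05 and −0.04. Where they lie relative to the deleted part of the gene is not given in the sources used here, so they do not check the genotype labels. The markers of CD8 T cells were all above background, which was set at the 95th percentile of the signals of 80 probe sets of odour and pheromone receptors (log2 4.45 and 4.99 in the PDK1 and AktI experiments). Of the receptor signalling genes, 36 of 37 lay above that level in each experiment, and Egr2 lay below it in both.

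Most of the receptor signalling genes passed the test in neither experiment. In PDK1 null CTL, Dgka, which encodes diacylglycerol kinase alpha, rose and Pag1, which encodes a membrane adaptor that brings the inhibitory kinase Csk to the membrane, fell. With AktI, Dgka rose and the transcription factor genes Egr1 and Nr4a3 fell. A gene passed where limma gave an adjusted p under 0.05, with Benjamini-Hochberg adjustment over all 45037 probe sets tested, and a change of at least 1.5-fold. In PDK1 null CTL 2 of 37 members passed (5.41%), against 1.36% of all 18193 genes (1.01% higher and 0.357% lower) and 2.05% of the 11970 genes above background. With AktI 3 of 37 passed (8.11%), against 2.53% of all genes (1.51% higher and 1.03% lower) and 3.77% of the 11869 above background. At an unadjusted p under 0.05, limma called 6 members higher and 6 lower in PDK1 null CTL, against 17.3% of all genes, and 6 higher and 10 lower with AktI, against 20.3%. The median log2 fold change of the members was 0.00 in PDK1 null CTL and −0.01 with AktI, beside −0.01 and −0.02 over all genes. In such bulk RNA, fewer cells of a type and less RNA per cell cannot be told apart.

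**Figure D1:**
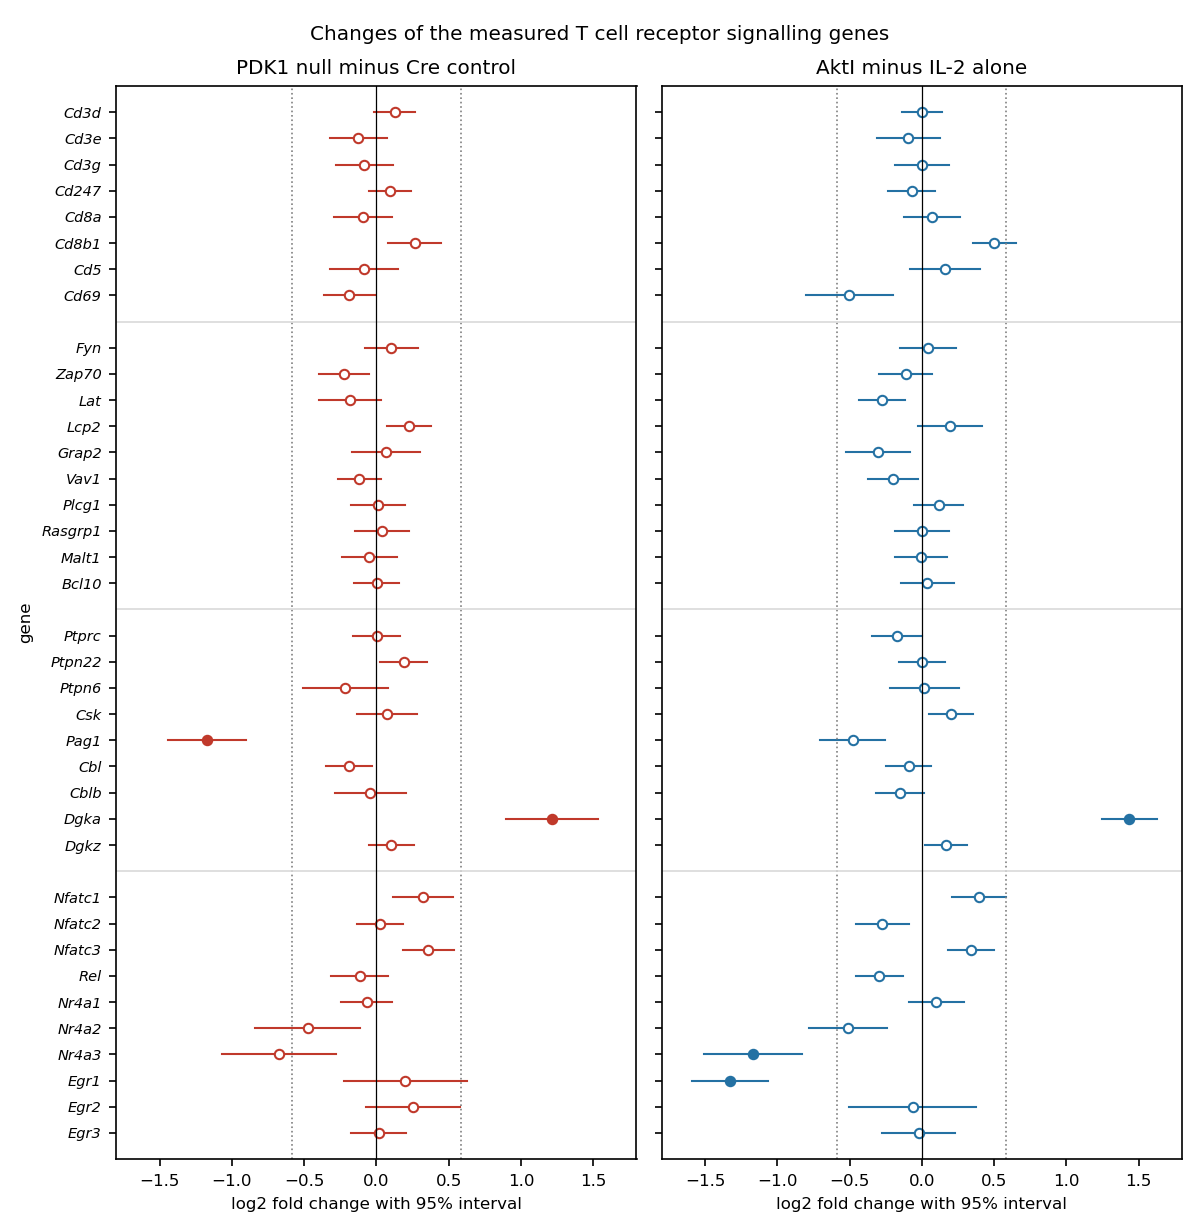
Log2 fold change of the 37 measured genes in PDK1 null against Cre control CTL (left) and with AktI against IL-2 alone (right), with the 95% interval from limma. Filled points passed the test, dotted lines mark 1.5-fold, and grey lines separate receptor chains, signal carriers, tuning enzymes and transcription factors from top to bottom. The filled points are Pag1 and Dgka on the left and Dgka, Nr4a3 and Egr1 on the right.

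Of the CD3 chains, the zeta chain Cd247, the CD8 coreceptor chains, Cd5 and Cd69, none passed in either experiment, by limma or by SAM, the test of the study's methods. At an unadjusted p under 0.05, limma called 1 of these 8 higher (Cd8b1) and 1 lower (Cd69) in each experiment. Of all genes, 17.3% were called in this way in PDK1 null CTL and 20.3% with AktI. Cd3e, a CD3 chain needed to assemble the receptor, gave log2 signals of 9.64, 9.71 and 9.87 in Cre control CTL and 9.71, 9.51 and 9.64 in PDK1 null CTL. Wild-type CTL gave 10.66, 10.32 and 10.53 without the inhibitor and 10.47, 10.43 and 10.33 with it. The groups overlapped in both experiments. The log2 fold changes of Cd3e were −0.12 (95% interval −0.32 to 0.07) in PDK1 null CTL and −0.09 (−0.31 to 0.12) with AktI. Cd3d and Cd247 were higher in PDK1 null CTL without overlap, by 0.13 and 0.09 (limma adjusted p = 0.404 and 0.553). Of all genes, 10.9% were higher there without overlap. The groups of Cd3g overlapped there, and with AktI those of Cd3d, Cd3g and Cd247 did. Over the 8 genes of this group, the intervals in PDK1 null CTL ran from −0.37 at the lowest to 0.45 at the highest, so changes as large as 1.5-fold lay outside all of them. With AktI they ran from −0.80 to 0.65, and 1.5-fold lay inside those of Cd69 and Cd8b1.

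The chains of the CD8 coreceptor, which binds class I molecules and brings Lck to the receptor, are encoded by Cd8a and Cd8b1. Cd8a signals overlapped between the groups of both experiments, with log2 fold changes of −0.09 in PDK1 null CTL (11.42, 11.35 and 11.49 in control, 11.26, 11.48 and 11.23 in null) and 0.07 with AktI (11.64, 11.34 and 11.46 in IL-2 alone, 11.59, 11.49 and 11.56 with AktI). Of the 5 Cd8a probe sets, 1444078_at gave 0.48 with AktI (limma adjusted p = 0.0245), less than 1.5-fold. None of the 5 passed. Cd8b1 signals were 11.77, 11.65 and 11.69 in IL-2 alone and 12.19, 12.25 and 12.18 with AktI. The AktI signals were all higher, with a log2 fold change of 0.50 ± 0.07 (SE, limma, adjusted p = 0.0035, n = 3 per group), a 1.42-fold change that was under the 1.5-fold minimum. The Cd8b1 signals of the PDK1 experiment were 11.23, 11.07 and 11.31 in control and 11.42, 11.52 and 11.46 in null CTL, again without overlap, with a log2 fold change of 0.27 that did not pass (limma adjusted p = 0.157). The difference between the Cd8b1 effects of the experiments did not pass either (limma adjusted p = 0.439).

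Cd69 encodes an early activation antigen that retains T cells in tissue. With AktI its signals were 9.40, 9.64 and 9.53, against 9.82, 10.34 and 9.92 in IL-2 alone, a log2 fold change of −0.50 (95% interval −0.80 to −0.20, limma adjusted p = 0.0739). In PDK1 null CTL they were 9.88, 9.96 and 9.82, against 10.09, 10.16 and 9.97, a log2 fold change of −0.19 (limma adjusted p = 0.309). The groups did not overlap in either experiment, but neither change passed the test.

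**Figure D2:**
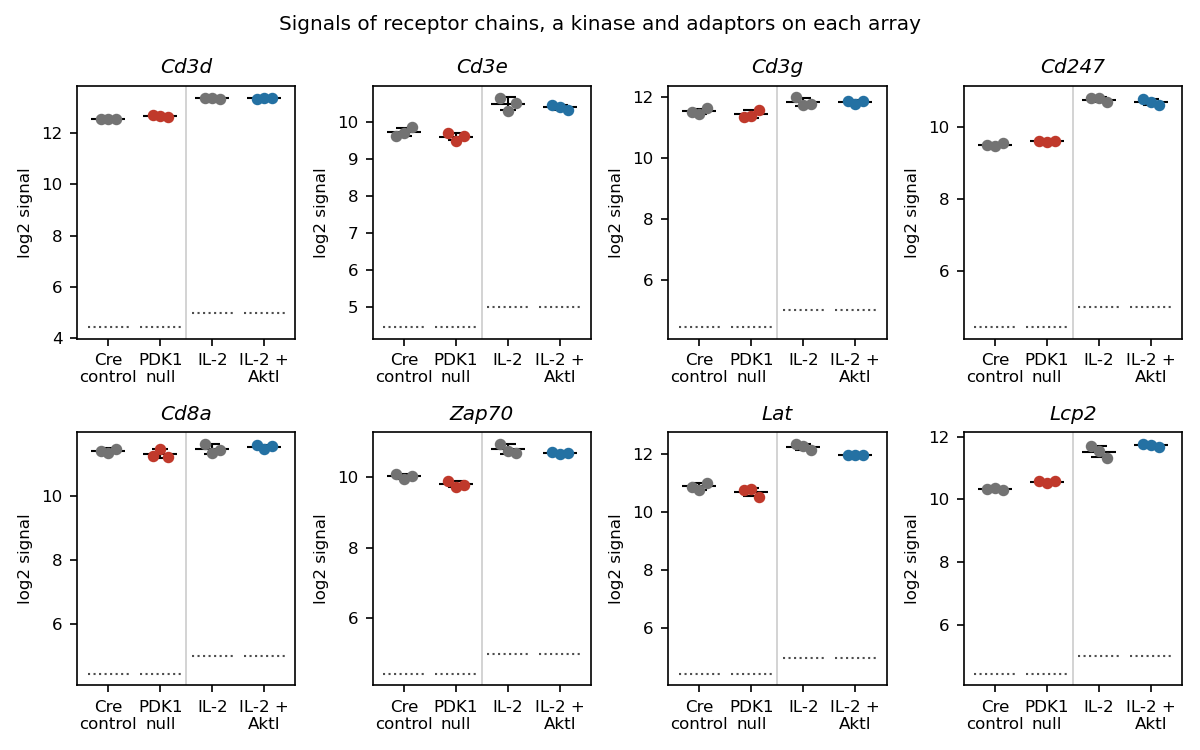
Log2 signal on each array (points) of 5 receptor and coreceptor chains, the kinase gene Zap70 and the adaptor genes Lat and Lcp2, with group means ± SD over 3 arrays (bars) and the background level of each experiment (dotted). The 2 experiments, split by the vertical line, were normalized separately. None of these 8 genes passed the test in either experiment.

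The kinases, adaptors and effectors that carry the signal inward had small log2 fold changes. None of the 10 passed by limma or SAM. At an unadjusted p under 0.05, limma called Lcp2 higher and Zap70 lower in PDK1 null CTL, against 17.3% of all genes. It called Lat, Grap2 and Vav1 lower with AktI, against 20.3% of all genes. The log2 fold changes of the 10 lay between −0.22 and 0.23 in PDK1 null CTL and between −0.30 and 0.19 with AktI. Zap70, the kinase that binds the phosphorylated receptor chains, had the lowest value in the PDK1 experiment. Its signals were 10.07, 9.94 and 10.03 in Cre control CTL and 9.88, 9.72 and 9.78 in PDK1 null CTL, without overlap, but the change did not pass (log2 fold change −0.22, limma adjusted p = 0.196). With AktI, Zap70 signals were 10.69, 10.65 and 10.66 against 10.93, 10.74 and 10.67, which overlapped. Lat, the membrane scaffold that Zap70 phosphorylates, gave 11.95, 11.96 and 11.96 with AktI against 12.32, 12.25 and 12.13 in IL-2 alone. These groups did not overlap, with a log2 fold change of −0.28 (limma adjusted p = 0.0661). Lat signals in the PDK1 experiment were 10.87, 10.76 and 10.98 in control and 10.76, 10.77 and 10.52 in null CTL, which overlapped.

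Lcp2, the scaffold that partners Lat, gave 10.34, 10.38 and 10.31 in Cre control CTL and 10.58, 10.52 and 10.60 in PDK1 null CTL. The null signals were all higher, by 0.23 on the log2 scale, and the change did not pass (limma adjusted p = 0.143). With AktI its signals of 11.76, 11.74 and 11.67 overlapped those of IL-2 alone, at 11.71, 11.54 and 11.34. Grap2 (GADS), which links Lat to Lcp2, gave 7.87, 8.06 and 8.05 with AktI against 8.41, 8.37 and 8.11 in IL-2 alone. Its log2 fold change of −0.30 did not pass (limma adjusted p = 0.135), although the groups did not overlap. Between PDK1 genotypes, Grap2 signals of 7.57, 7.88 and 7.54 in null CTL overlapped the control signals of 7.50, 7.65 and 7.66. Fyn, Vav1, Plcg1, Rasgrp1, Malt1 and Bcl10 had log2 fold changes between −0.12 and 0.10 in PDK1 null CTL and between −0.20 and 0.12 with AktI.

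The members with the clearest changes in PDK1 null CTL were among the enzymes and adaptors that tune or end the signal. Diacylglycerol kinase alpha converts diacylglycerol to phosphatidic acid, which limits Rasgrp1 and the protein kinases that diacylglycerol activates. Dgka signals were 9.38, 9.11 and 9.45 in Cre control CTL and 10.63, 10.24 and 10.72 in PDK1 null CTL. They were 10.00, 9.82 and 9.76 in IL-2 alone and 11.38, 11.29 and 11.22 with AktI. Every PDK1 null and every AktI array was above every array of its control group. Dgka rose 2.32-fold in PDK1 null CTL (log2 fold change 1.22 ± 0.14, SE, limma adjusted p = 0.00689, n = 3 per group) and 2.71-fold with AktI (1.44 ± 0.08, adjusted p = 0.000105). The effects differed by −0.22 on the log2 scale (95% interval −0.59 to 0.15), which did not pass the test. Dgkz, which encodes the zeta form of the enzyme, had log2 fold changes of 0.10 and 0.17 and passed in neither experiment.

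Pag1 signals were 9.10, 8.94 and 8.96 in Cre control CTL and 7.68, 8.10 and 7.71 in PDK1 null CTL. The groups lay well apart, and Pag1 fell 2.25-fold (log2 fold change −1.17 ± 0.12, SE, limma adjusted p = 0.00375, n = 3 per group). With AktI its signals were 8.32, 8.10 and 8.30 against 8.86, 8.56 and 8.74 in IL-2 alone, also without overlap. The log2 fold change there was −0.48 ± 0.10 (limma adjusted p = 0.0268), which was under the 1.5-fold minimum. The PDK1 effect minus the AktI effect was −0.69 on the log2 scale (95% interval −1.04 to −0.34), and this difference did not pass in the 12-array model (limma adjusted p = 0.104). Nor did it pass in 11 of 12 fits with 1 array left out. It passed without PDK1 null replicate 2, at −0.83 (limma adjusted p = 0.0237). The array of PDK1 null replicate 2 was the nearest to control of the 3 for Pag1, Dgka and Nr4a3.

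Pag1 has 4 probe sets, and they did not all move alike. One further Pag1 probe set, 1456403_at, fell by 0.84 in PDK1 null CTL (limma adjusted p = 0.0393), from a mean of 5.75 to 4.91. The other two, 1423002_at and 1443319_at, gave −0.17 and −0.39 and did not pass. Csk itself, the kinase that phosphorylates the inhibitory site of Lck, had log2 fold changes of 0.07 and 0.20. The phosphatase genes Ptprc (CD45), Ptpn22 and Ptpn6 and the ubiquitin ligase genes Cbl and Cblb had log2 fold changes between −0.21 and 0.19 in PDK1 null CTL and between −0.17 and 0.02 with AktI, and none passed.

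**Figure D3:**
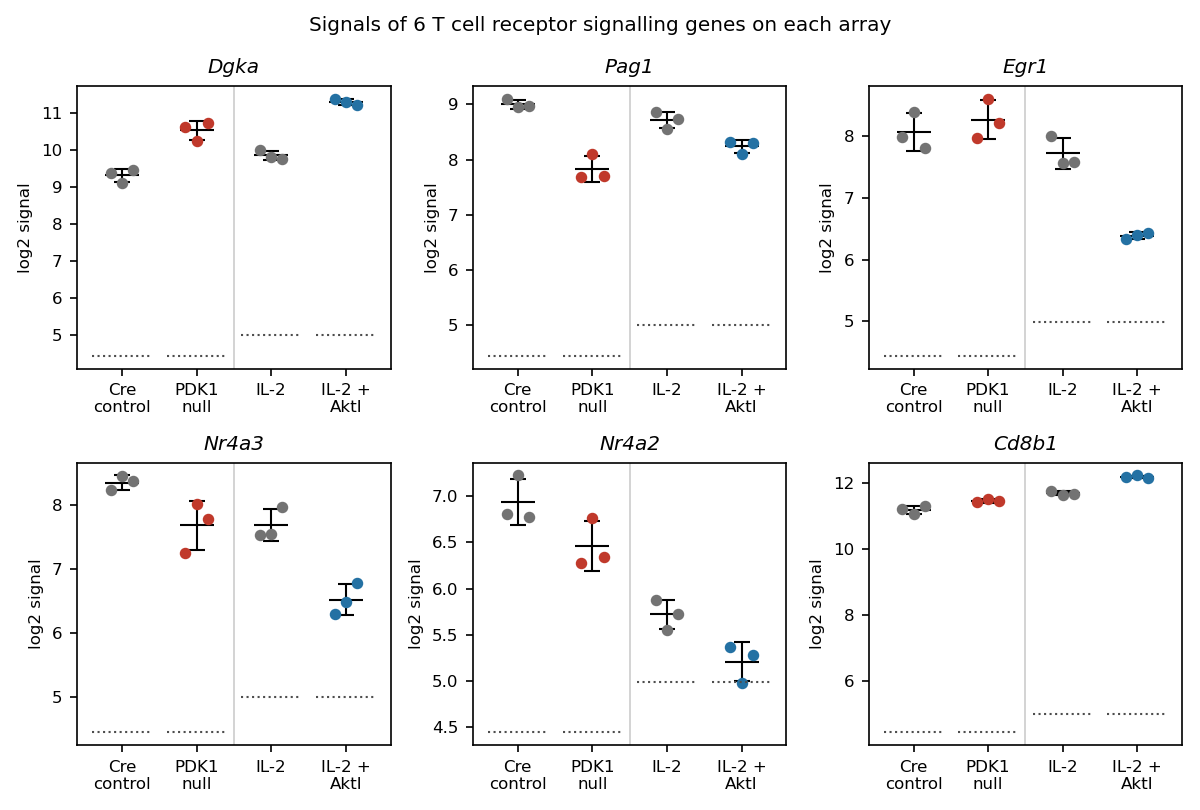
Log2 signal on each array (points) of Dgka, Pag1, Egr1, Nr4a3, Nr4a2 and Cd8b1, with group means ± SD over 3 arrays (bars) and the background level of each experiment (dotted). The 2 experiments, split by the vertical line, were normalized separately, and each panel has its own axis. Dgka is higher in PDK1 null CTL and with AktI, and Egr1 is lower with AktI but overlaps between Cre control and PDK1 null.

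Among the transcription factors, Egr1 and Nr4a3 fell with AktI, and none of the 10 passed in PDK1 null CTL by limma or SAM. At an unadjusted p under 0.05, limma called Nfatc1 and Nfatc3 higher and Nr4a2 and Nr4a3 lower in PDK1 null CTL, against 17.3% of all genes. With AktI it called 2 higher (Nfatc1 and Nfatc3) and 5 lower (Nfatc2, Rel, Nr4a2, Nr4a3 and Egr1), against 20.3% of all genes. Egr1, an immediate early factor induced through the Ras and Erk pathway, gave 8.0, 7.57 and 7.58 in IL-2 alone and 6.33, 6.39 and 6.44 with AktI. It fell 2.51-fold (log2 fold change −1.33 ± 0.12, SE, limma adjusted p = 0.000538, n = 3 per group). In Cre control CTL its signals were 7.98, 8.39 and 7.80, and in PDK1 null CTL 7.97, 8.60 and 8.21. These overlapped, with a log2 fold change of 0.20 (95% interval −0.22 to 0.62). The effects of the experiments on Egr1 differed by 1.53 on the log2 scale (95% interval 1.01 to 2.05, limma adjusted p = 0.0134). Egr1 was the sole member of 37 to pass that test (2.7%), against 0.522% of all genes (0.319% with a positive difference and 0.203% with a negative one). At an unadjusted p under 0.05 the difference was called for 5 members, against 11.1% of all genes. The relatives Egr2 and Egr3 had log2 fold changes of 0.25 and 0.02 in PDK1 null CTL and of −0.06 and −0.02 with AktI.

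Nr4a3 (NOR1) and Nr4a2 (Nurr1) are orphan nuclear receptors that are induced early after receptor stimulation. Nr4a3 signals were 7.54, 7.55 and 7.97 in IL-2 alone and 6.30, 6.48 and 6.78 with AktI. The AktI signals were all lower, by 2.24-fold (log2 fold change −1.17 ± 0.15, SE, limma adjusted p = 0.00322, n = 3 per group). Nr4a3 in the PDK1 experiment gave 8.23, 8.45 and 8.38 in control and 7.26, 8.01 and 7.78 in null CTL. These did not overlap either, but the log2 fold change of −0.67 did not pass (limma adjusted p = 0.105). Nor did it pass in 5 of 6 fits with 1 array left out. Without PDK1 null replicate 2 it passed (−0.84, limma adjusted p = 0.0378). The fall rests on 1 of 3 Nr4a3 probe sets. Probe set 1421080_at, whose means were 7.02 without AktI and 6.93 with it, gave −0.09, and the dimmer 1421079_at, below background, gave 0.16. With the mean of the 3 Nr4a3 probe sets the AktI change was −0.37 (limma adjusted p = 0.0201), under the 1.5-fold minimum.

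Nr4a2 gave 5.87, 5.56 and 5.73 in IL-2 alone and 5.37, 4.97 and 5.28 with AktI, without overlap and close to background. Its log2 fold change was −0.51 (limma adjusted p = 0.0473), under the 1.5-fold minimum. In the PDK1 experiment its signals were 6.81, 7.23 and 6.77 in control and 6.27, 6.77 and 6.34 in null CTL. The log2 fold change of −0.48 did not pass (limma adjusted p = 0.199). Its 6 probe sets did not all move alike. Probe set 1450750_a_at fell by 0.70 in PDK1 null CTL (limma adjusted p = 0.0462), and gave −0.14 with AktI. Probe set 1455034_at gave −0.71 and −0.73, which did not pass (limma adjusted p = 0.215 and 0.0839). The values of 1433422_at, 1433423_at and 1450749_a_at lay between −0.18 and 0.01 in PDK1 null CTL and between −0.05 and 0.12 with AktI. Nr4a1 (Nur77), a widely used reporter of receptor stimulation, had log2 fold changes of −0.07 and 0.10.

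The NFAT factors are kept in the cytoplasm by phosphorylation and enter the nucleus when calcineurin removes it. Nfatc3 signals were 9.15, 9.16 and 9.08 in Cre control and 9.50, 9.38 and 9.59 in PDK1 null CTL, and 9.89, 9.81 and 9.71 in IL-2 alone and 10.13, 10.18 and 10.13 with AktI. The PDK1 null and AktI groups were higher than their controls without overlap. The log2 fold changes were 0.36 (limma adjusted p = 0.061) and 0.34 (adjusted p = 0.0274), both under the 1.5-fold minimum. Nfatc1 gave 0.32 (limma adjusted p = 0.13) and 0.39 (adjusted p = 0.0293), also under the minimum. The 5 Nfatc1 probe sets differed in sign with AktI, and 1447084_at gave −0.29 (limma adjusted p = 0.0367). Nfatc2 had log2 fold changes of 0.03 and −0.27. The NF-κB subunit gene Rel had −0.11 and −0.29. Neither gene passed, although the AktI signals of both were all lower than those in IL-2 alone.

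By the wider measure of groups that did not overlap, 15 of 37 members (40.5%) were separated in the PDK1 experiment, against 24.7% of all genes and 31.9% of those above background. They were higher in PDK1 null CTL for 8 and lower for 7, against 10.9% and 13.7% of all genes. In the AktI experiment 18 of 37 (48.6%) were separated, 6 higher and 12 lower with AktI, against 27.4% of all genes (12.7% and 14.8%) and 36.5% of those above background. At an adjusted p under 0.05 with no fold minimum, 2 members were called in PDK1 null CTL and 8 with AktI, against 2.37% and 6.57% of all genes. For the difference of effects 0.616% of all genes were called in this way, and of the members Egr1. The 5 added with AktI were Cd8b1, Nfatc1 and Nfatc3, which were higher, and Pag1 and Nr4a2, which were lower. Because the AktI cultures were divided from 3 mice, the change could also be read within each mouse. Within mice, Dgka changed by 1.38, 1.47 and 1.46 on the log2 scale. Egr1 changed by −1.67, −1.18 and −1.14, and Nr4a3 by −1.24, −1.06 and −1.19. Cd8b1 and Nfatc1 were higher with AktI, and Pag1, Nr4a2 and Cd69 were lower with AktI, in 3 of 3 mice. These values are of the brightest probe set of each gene, and the Nfatc1 probe sets differed in sign with AktI.

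**Figure D4:**
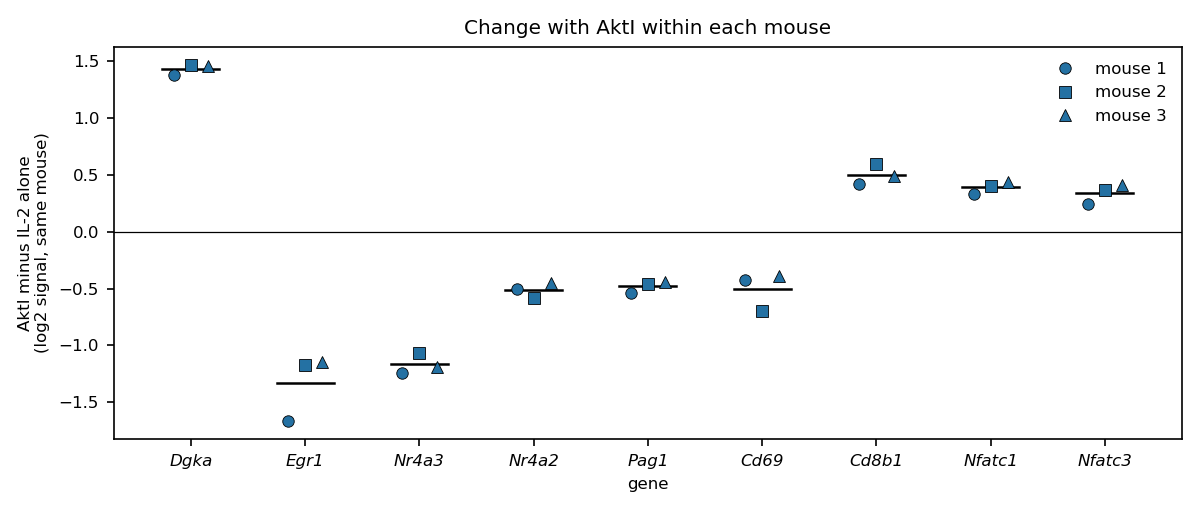
Log2 signal with AktI minus that in IL-2 alone for the CTL of the same mouse (3 symbols for 3 mice, black line at their mean) in 9 of the receptor signalling genes. Each gene is shown by its brightest probe set. All 3 mice lie above 0 for Dgka, Cd8b1, Nfatc1 and Nfatc3 and below 0 for Egr1, Nr4a3, Nr4a2, Pag1 and Cd69.

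Markers of other spleen cells were read beside these changes. None of the 40 measured markers passed in the PDK1 experiment. At an unadjusted p under 0.05, limma called 4 higher and 1 lower there, against 17.3% of all genes. The summed B cell signal was 689 to 853.7 in Cre control and 855.9 to 1185 in PDK1 null CTL. Of those 9 markers, 5 were at or below background. The NK cell sums were 35.56 to 40.08 and 41.33 to 62.39, with at least 2 of 3 at or below background. The sums of the other lists overlapped. With AktI, limma called 3 markers higher and 10 lower at that unadjusted threshold, against 20.3% of all genes. With AktI, 2 of 10 macrophage and other myeloid markers fell (Cd68 and Mpeg1), and the summed signal of the list was 438.1 to 510.7 in IL-2 alone and 329.5 to 344.4 with AktI. Of these 10 markers, 6 were at or below background in IL-2 alone and 7 with AktI, among them Lyz2, Cd14, Itgam and Adgre1 in both. Of 6 mast cell and basophil markers 1 fell (Mcpt8), with sums of 138.1 to 194.7 and 117.0 to 131.5, and Fcer1a, Cpa3, Ms4a2 and Mcpt4 were at or below background in both. Of 9 B cell markers none passed, with sums of 2617 to 5396 and 1821 to 3371, and Ms4a1, Cr2 and Fcer2a at or below background in both. Most of that sum was Ighm, with log2 signals of 11.18, 12.32 and 11.75 in IL-2 alone and 10.57, 11.58 and 11.39 with AktI. The means of 4 of the 9 were higher with AktI and those of 5 were lower. Cd79b was higher within each mouse, by 0.28, 0.52 and 0.23 on the log2 scale. Of 3 NK cell markers 1 rose (Klrb1f), with sums of 50.19 to 60.43 and 72.64 to 83.47, and Ncr1 and Klra8 at or below background in both. Of 5 CD8 T cell markers 1 fell (Prf1, which encodes perforin), with sums of 45420 to 47990 and 36620 to 38370. With no fold minimum, limma called 3 of these 5 lower at an adjusted p under 0.05 (Gzmb, Prf1 and Nkg7) and 1 higher (Cd8b1). Of all genes, 6.57% were called in this way. Cd8a had a log2 fold change of 0.07. Of 4 CD4 T cell markers none passed, with sums of 266.5 to 272.4 and 249.8 to 256.6, and Cd40lg and Foxp3 at or below background in both. The part of these cells in the falls of Egr1 and Nr4a3 or in the rise of Dgka with AktI was not tested. Nor was it tested for the changes of Dgka and Pag1 in PDK1 null CTL.

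Promoter sequences are shown for Dgka, the gene that rose in both experiments, and for Nr4a2 and Nr4a3, both induced early by the receptor, so that their upstream letters can be read beside the changes. The windows run from 250 bases before to 50 bases after the transcription start, are from RefSeq on GRCm38.p6, and are written on the gene's strand. They lie at chr10:128745035-128745334 (minus strand) for Dgka, where it is the furthest upstream of 4 windows, at chr2:57123954-57124253 (minus strand) for Nr4a2 and at chr4:48045055-48045354 (plus strand) for Nr4a3. Capitals mark matches, on either strand, to TGACGT, which is part of the full cAMP response element TGACGTCA, or to the Foxo motif (GTAAACA). Shorter parts of the element were not marked, and one of them, TGACG, is also in the Nr4a2 window.
Dgka: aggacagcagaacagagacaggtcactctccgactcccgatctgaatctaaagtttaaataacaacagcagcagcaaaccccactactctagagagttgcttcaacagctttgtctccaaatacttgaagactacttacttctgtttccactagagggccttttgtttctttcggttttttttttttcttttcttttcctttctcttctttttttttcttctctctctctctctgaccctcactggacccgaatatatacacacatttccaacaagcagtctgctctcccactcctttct
Nr4a2: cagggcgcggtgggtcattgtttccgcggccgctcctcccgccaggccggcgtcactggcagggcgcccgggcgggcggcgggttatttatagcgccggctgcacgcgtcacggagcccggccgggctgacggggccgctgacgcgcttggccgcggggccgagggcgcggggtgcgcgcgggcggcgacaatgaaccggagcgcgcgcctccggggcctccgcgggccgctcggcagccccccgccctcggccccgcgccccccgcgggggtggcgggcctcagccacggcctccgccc
Nr4a3: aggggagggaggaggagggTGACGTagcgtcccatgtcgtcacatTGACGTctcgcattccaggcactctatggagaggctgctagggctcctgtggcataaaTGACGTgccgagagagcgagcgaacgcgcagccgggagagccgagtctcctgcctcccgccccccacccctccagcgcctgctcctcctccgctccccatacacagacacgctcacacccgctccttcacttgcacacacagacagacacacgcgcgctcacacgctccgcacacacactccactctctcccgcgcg
The Nr4a3 window holds TGACGT at 3 places, first bases 20, 46 and 104, and the Nr4a2 and Dgka windows shown hold no match to these letters. TGACGT is in 7.51% of the 32851 mouse windows read. Not every mouse promoter window was read, and windows were read for 31 of the receptor signalling genes, Egr1 not among them. TGACGT is in 7 of their 47 windows, which belong to 5 genes (Cd3e, Egr2, Nr4a3, Rel and Zap70). The Egr2 windows overlap and hold the same site. The Foxo motif is in 3.65% of all windows and in 3 of the 47, which belong to 3 genes (Grap2, Nfatc2 and Nfatc3), and in none of the 4 of Dgka. The full element is in 1.79% of all windows and in 1 of the 47, that of Zap70. A match is a description of letters, not of binding.

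A further 88 genes of the pathway, among them other costimulatory receptors, kinases, inhibitors, calcium channels and transcription factors, gave 74 with a probe set. In PDK1 null CTL 2 of 74 (2.7%) rose, against 1.36% of all genes, and none fell by limma or SAM. At an unadjusted p under 0.05, 18 were higher and 6 lower, against 17.3% of all genes. With AktI 2 rose and 3 fell (6.76%), against 2.53% of all genes. Irf4, a transcription factor whose level follows the strength of receptor signals, gave 7.49, 7.76 and 7.95 in Cre control CTL and 8.72, 8.55 and 8.46 in PDK1 null CTL. Its signals were 9.30, 9.57 and 9.45 in IL-2 alone and 10.75, 10.75 and 10.62 with AktI. The PDK1 null and AktI arrays were all higher than their controls. Irf4 rose 1.79-fold in PDK1 null CTL (limma adjusted p = 0.0169) and 2.40-fold with AktI (adjusted p = 0.000164). Its other probe set, 1421174_at, passed in both experiments too (0.59 and 0.98 on the log2 scale). The Irf4 call in PDK1 null CTL was lost without Cre control replicate 2, PDK1 null replicate 1 or PDK1 null replicate 3 (limma adjusted p = 0.0693, 0.0566 and 0.0518). Cd2, an adhesion receptor of T cells, gave 9.75, 9.46 and 9.70 in control and 10.41, 10.26 and 10.26 in null CTL, and rose 1.59-fold (limma adjusted p = 0.0151). The Cd2 call was lost without Cre control replicate 2, under the 1.5-fold minimum at 0.58, and without Cre control replicate 3, PDK1 null replicate 1 or PDK1 null replicate 3 (adjusted p = 0.0582, 0.0536 and 0.0545).

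Fosl2, a subunit of the AP-1 factors, was the gene that fell furthest of the 74 with AktI. Its signals were 9.18, 9.10 and 9.37 in IL-2 alone and 8.01, 8.13 and 8.38 with AktI, a 2.06-fold fall (limma adjusted p = 0.00134). The dimmer Fosl2 probe set, 1422931_at, gave −0.27 and did not pass. In PDK1 null CTL its signals of 8.0, 8.30 and 8.25 were also all lower than the 8.43, 8.55 and 8.54 of control, by 0.33 on the log2 scale, which did not pass (limma adjusted p = 0.137). Nfkbia, the inhibitor that holds NF-κB in the cytoplasm, gave 10.92, 11.07 and 11.13 with AktI against 10.45, 10.46 and 10.15, and rose 1.61-fold (limma adjusted p = 0.00657). The Nfkbia call was shared by 4 of its 5 probe sets, and the dimmest, 1420089_at, gave 0.44 (limma adjusted p = 0.0803). Without IL-2 replicate 3 the change of the brightest fell just under the 1.5-fold minimum.

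Dok2, an adaptor that dampens Ras signalling, gave 10.74, 10.77 and 10.97 with AktI against 11.57, 11.45 and 11.54 in IL-2 alone, and fell 1.61-fold (limma adjusted p = 0.00215). In the PDK1 experiment Dok2 overlapped between groups (10.23, 10.29 and 10.30 in control, 10.08, 10.47 and 10.46 in null), and the difference between the effects passed (0.76, limma adjusted p = 0.0337). Sh2d2a, which encodes a T cell adaptor that binds Lck, gave 10.24, 10.22 and 10.40 with AktI against 10.98, 10.75 and 10.94. It fell 1.52-fold (limma adjusted p = 0.00537), and the change lay under 1.5-fold without IL-2 replicate 1 or 3 or AktI replicate 1 or 2. With the mouse as a block, 2 more of the 74 passed with AktI. Trat1, an adaptor of the receptor complex, was higher by 0.70 on the log2 scale (limma adjusted p = 0.0106 with the block and 0.238 without). Its other probe set, 1437561_at, gave 0.12 with AktI. In PDK1 null CTL Trat1 was higher by 1.17 without overlap, which did not pass (limma adjusted p = 0.212). Rnf128, a ubiquitin ligase of unresponsive T cells, was lower with AktI (log2 fold change −0.64, limma adjusted p = 0.0253 with the block and 0.0999 without).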

How the data were processed

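The authors deposited log2 signals per probe set, made per the labels in Affymetrix Expression Console 1.1 by robust multichip averaging, and these log2 values were used as deposited. This method shares a quantile normalization across arrays, and the different array medians show that the experiments were normalized apart. Of 45101 probe sets, 64 controls were left out. Genes were named from the platform annotation in which 34945 probe sets name 1 gene. Comparisons were fitted with limma 3.58.1 in R 4.3.3 (lmFit and eBayes, no covariate), with 6 arrays per comparison, and the difference of effects (the PDK1 effect minus the AktI effect) with 12 arrays and 4 group means. Alternatives were SAM at 1.5-fold (the methods' test), other scalings, filters, fold minimums and probe set rules, the replicate block and each array left out. Scripts were tested on simulated data. The members and lists were chosen with earlier results of these data known. Arrays were shown for members that passed, for the 2 largest changes of each functional group in each comparison, for Cd3e, Cd8a and Zap70, and, of other pathway genes, for those that passed. Nfatc3 was added by its value. An exact permutation test of 3 against 3 arrays cannot go below p = 0.1. Depth does not apply to arrays, and their number limits the precision. The labels pair AktI cultures by mouse. Deviations of same-numbered arrays correlated with r of 0.22, 0.09 and 0.14 there, and of different numbers with −0.14 to −0.00.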

Additional observations from a re-analysis of the deposited data

Results flagged for a closer look

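Both genes here had a different change in the PDK1 experiment than in the AktI experiment by limma's test of the difference in the 12-array model. For Egr1 the PDK1 effect minus the AktI effect was 1.53 on the log2 scale (limma adjusted p = 0.0134). Egr1 fell with AktI in 3 of 3 mice, while the groups of the PDK1 experiment overlapped. The difference stayed past the threshold when any 1 array was left out. For Dok2, which encodes an adaptor that dampens Ras signalling, the same difference was 0.76 (limma adjusted p = 0.0337). The Dok2 difference no longer passed when 1 array was left out, for 10 of the 12 arrays (limma adjusted p between 0.0553 and 0.106). The experiments differ in genotype, in 4OHT and in the time of treatment, and these cannot be told apart in the difference of effects.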

How the results depend on the processing

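Dgka and Pag1 in PDK1 null CTL and Dgka and Egr1 with AktI passed under every alternative run, which were limma's trend and robust settings, 2 further scalings, a filter on dim probe sets, 2 other fold minimums, 2 other rules for the probe set, the 12-array model, SAM, the replicate block and each array left out. Dgka and Egr1 each rest on 1 probe set, so the probe set rules left their signals unchanged. Dropping the fold minimum or taking any probe set can only add calls. Nr4a3 with AktI failed under the mean of its probe sets, as given above. With no fold minimum, 8 members passed with AktI, and 4 and 15 other pathway genes passed in PDK1 null CTL and with AktI. With a 2-fold minimum those 2 counts were 0 and 2. Leaving out each array gave 0 to 2 and 4 to 8 of them, 2 to 3 members in PDK1 null CTL, 3 with AktI and 1 to 2 for the difference of effects. The trend and robust settings gave 2 members for that difference, Egr1 and Pag1. Grap2 in PDK1 null CTL ranged from −0.044, without PDK1 null replicate 2, to 0.13 when 1 array was left out, and so changed sign. With the replicate number as a block the counts of members remained 2, 3 and 1, the same genes, and other pathway genes with AktI went from 5 to 7. In the PDK1 experiment the labels give only a shared number, whose same-numbered arrays correlated with r of 0.08, 0.08 and 0.01, and not every array correlated best with its own number. The block also made the difference of effects on Fosl2 pass (0.72, limma adjusted p = 0.0274, and 0.0692 without it). Of 751 values recomputed for single genes, 714 kept their direction and side of the threshold, 29 no longer passed, 7 newly passed and 1 changed sign. With 3 arrays per group, changes under 1.5-fold and genes near background, Egr2 above all, are the least certain.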
